A study of Mus musculus with 17 samples.

Results

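The mitochondrial solute carriers of the SLC25 family were examined in RNA pulled down with tagged ribosomes from the cerebral cortex of mice. The members were the rows of the count table whose Ensembl identifier belongs to a protein-coding gene with a symbol made of Slc25a and a number. There were 47 such genes among 39017 rows, and 46 of them were among the 22242 genes that passed the filter on low counts and were tested. The study compared mice with chronic experimental autoimmune encephalomyelitis (EAE), a model of multiple sclerosis, with healthy mice matched for age and sex. The males were 4 controls and 5 mice with EAE, the females 4 controls and 4 mice with EAE, and each mouse gave 1 library. All mice, controls included, were of the C57BL/6J background and of the NSE-Cre:RiboTag genotype, and the EAE mice had been immunized with a peptide of myelin oligodendrocyte glycoprotein in complete Freund's adjuvant and given pertussis toxin. Cre was driven by the promoter of neuron-specific enolase and was always inherited from the mother, and it switched on an HA tag on the ribosomal protein Rpl22 in the cells where it was active. The labels give the cells as neurons, and total RNA from the same tissue was not analysed here.

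SLC25 proteins are small carriers, nearly all in the inner mitochondrial membrane, that move nucleotides, amino acids, carboxylates, phosphate, cofactors and metal ions between the cytosol and the matrix. In neurons they export the ATP made by oxidative phosphorylation, bring in phosphate and ADP, and run the malate-aspartate shuttle, which passes reducing equivalents from glycolysis to the respiratory chain. They also move glutamate and citrate, which links mitochondria to transmitter turnover and lipid synthesis, and a few members sit in other membranes, such as Slc25a46 in the outer mitochondrial membrane and Slc25a17 in peroxisomes.

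Total counts ranged from 66155142 to 98433383 over the 17 libraries and were lower in every male EAE library (70613567 to 76768267) than in every male control library (85800542 to 98433383). A count of 3, taken as the floor for a count of 0, was worth between 0.0305 and 0.0440 CPM, the count divided by the scaled library size in units of 1e6 reads, and such floors cover counting error only. Markers of 8 neuronal genes summed to 11282 to 12266 CPM in male controls and 11577 to 13230 CPM in male EAE mice. The 12 astrocyte markers were well above 0 in every group, at 11699 to 16779 CPM in male controls, 7889 to 10012 CPM in male EAE mice, 7973 to 15001 CPM in female controls and 7909 to 9477 CPM in female EAE mice. All 12 of these markers had a log2 fold change below 0 in male EAE against male control mice, and 9 of them were called lower by edgeR, at a false discovery rate under 0.1 and a log2 fold change past 0.25. In females 11 of the 12 were below 0 and 0 were called. Of the 8 neuronal markers, Rbfox3 was called lower in male EAE mice and Syt1, Gad1 and Nefl were called higher. Of all genes, 20.4% were called lower and 19.2% higher in males. The highest astrocyte sums were in male control 4 and female control 2. Summed markers of oligodendrocytes were 6492 to 7141 CPM in male controls and 6551 to 8096 CPM in male EAE mice, those of microglia 37.03 to 41.5 and 32.3 to 54.9 CPM, those of endothelium 4.65 to 7.81 and 5.24 to 11.1 CPM, and those of T and B cells 65.4 to 101 and 90.96 to 186 CPM. Called higher in male EAE mice were 3 of the 8 oligodendrocyte markers, 0 of the 8 of microglia, 1 of the 8 of endothelium and 4 of the 10 tested of T and B cells. From these 4 lists, 0 markers were called lower. The part of other cells in the values that follow was not tested. In such bulk samples, fewer cells of a type and less RNA per cell cannot be told apart.

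The family spanned 4 orders of magnitude in the 8 control mice. Levels of different genes are given as CPM per kilobase of exon, so that they can be compared between genes. Slc25a4, the ADP/ATP carrier that predominates in excitable tissues and is also known as ANT1, stood first at 245 ± 14.01 CPM per kilobase (SD, n = 8). Slc25a23, a calcium-regulated carrier of ATP-Mg and phosphate, followed at 117 ± 16.9, and Slc25a22 and Slc25a18, both glutamate carriers, had 61.7 ± 3.02 and 59.6 ± 20.9 CPM per kilobase. Slc25a11, the oxoglutarate carrier of the malate-aspartate shuttle, came next at 52.6 ± 6.64. These 5 genes made up 58.8% of the summed level per kilobase of the tested members, and Slc25a4 alone 26.8%. The ranges of the 8 controls did not overlap between Slc25a4 and Slc25a23, or between Slc25a23 and Slc25a22. Below that, neighbours in the order overlapped except at 3 places, between Slc25a33 and Slc25a51, between Slc25a16 and Slc25a26, and between Slc25a47 and Slc25a45. At the low end, Slc25a43, Slc25a41 and Slc25a54 had means of 0.042, 0.0259 and 0.0228 CPM per kilobase. Slc25a31 (ENSMUSG00000069041), which encodes the ADP/ATP carrier ANT4 of the testis, was the member that the filter dropped. It had a total of 26 counts over the 17 libraries and was at 0 in 10 of them, with 0, 0.0203, 0.0221 and 0 CPM in the male controls and 0, 0, 0.0259, 0.138 and 0 CPM in the male EAE mice, and 0.0215, 0, 0.0691 and 0 CPM in the female controls and 0, 0.0287, 0 and 0 CPM in the female EAE mice.

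**Figure D1:**
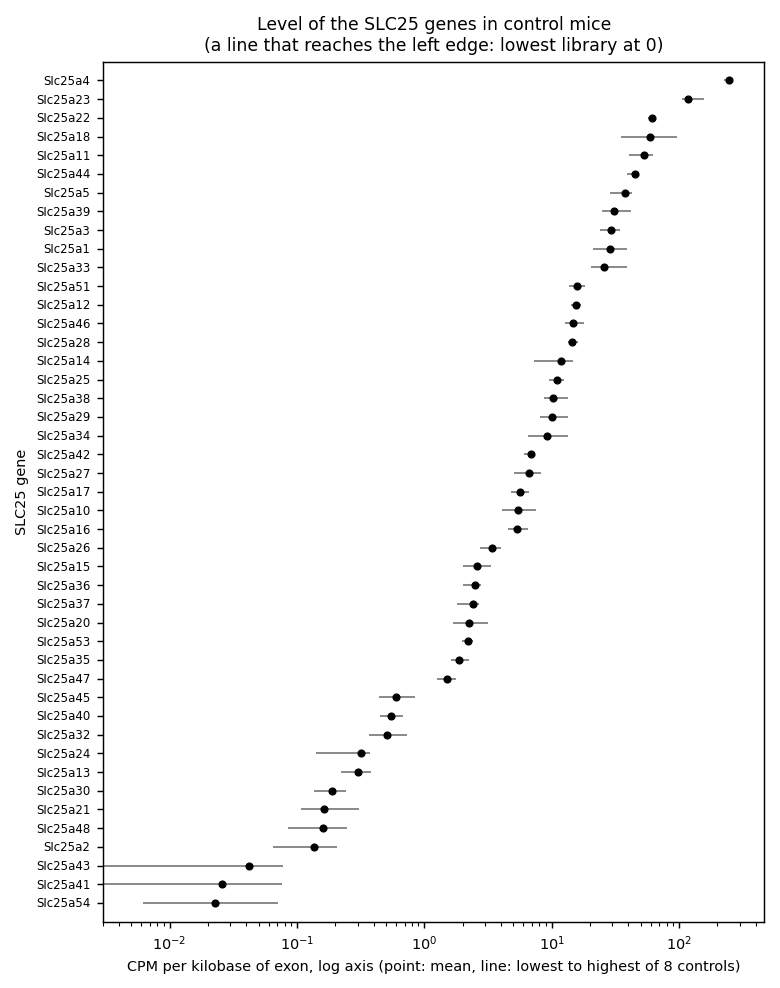
Level of 45 of the 46 tested SLC25 genes in the 8 control mice, as CPM per kilobase of exon on a log axis, with points for means and lines from the lowest to the highest library. Slc25a4 lies above all other members, at 245 ± 14.01 (SD), and the lines of most neighbours overlap.

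In male mice, 28 of the 46 tested members were differentially expressed between EAE and control, meaning a false discovery rate under 0.1 over all genes tested and a log2 fold change past 0.25. Of these, 18 were lower and 10 were higher in EAE. The median log2 fold change of the 46 members was -0.16, against 0.02 over all genes. The share of all genes called was 39.6%, with 20.4% lower and 19.2% higher. The EAE and control libraries did not overlap for 15 of the 46 members, while 24.4% of all genes had no overlap. In female mice, 0 of the 46 were called by edgeR, where 0.0584% of all genes were, and the median was -0.11. Without male control 4 the male count was 17, where 26.3% of all genes were called, and it was 20 without male control 4 and female control 2, where 29% were. With 1 surrogate variable in the fit it was 0, where 0.0405% of all genes, or 9, were called.

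**Figure D2:**
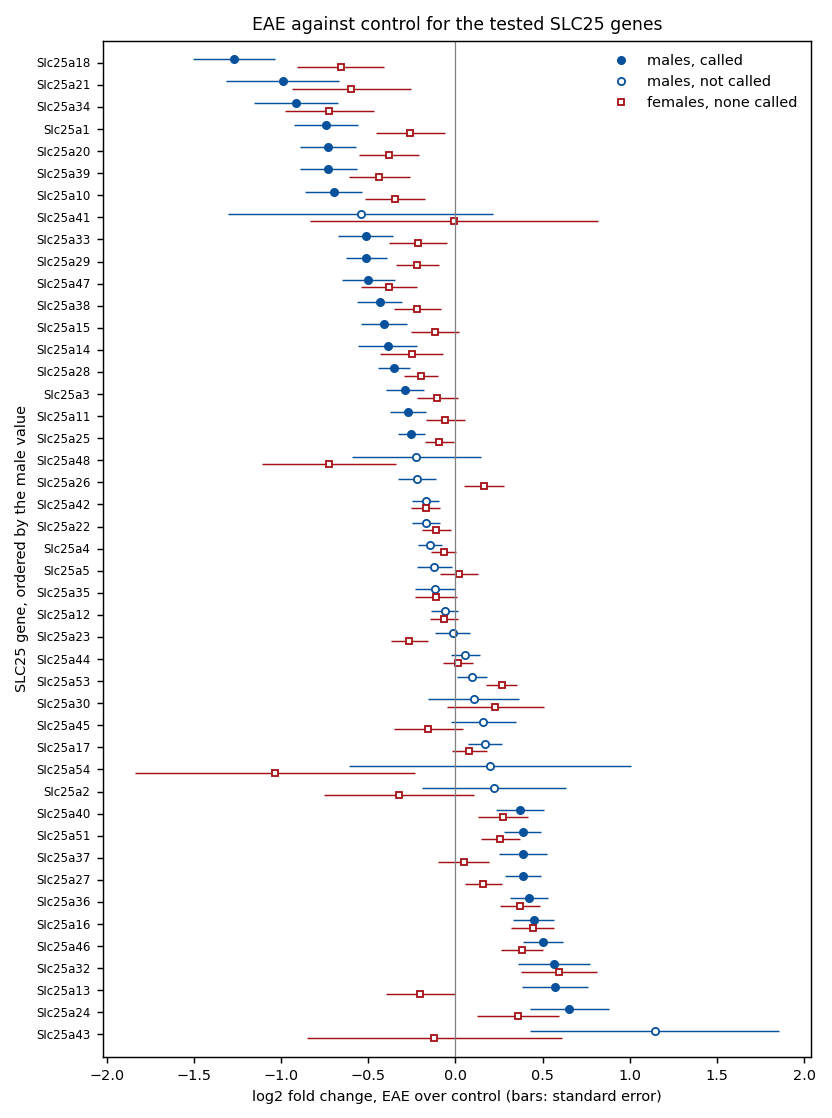
Log2 fold change of EAE over control with its standard error for 45 of the 46 tested SLC25 genes, in males (circles, filled where called) and females (squares, none called), ordered by the male value. Called members run from -1.27 for Slc25a18 to 0.65 for Slc25a24 in males.

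The carriers of carboxylates and acylcarnitines were called lower in male EAE mice in all 5 cases, with a median log2 fold change of -0.73. Of all genes, 20.4% were called lower. Slc25a1 (ENSMUSG00000003528), the citrate carrier that exports citrate for fatty acid and sterol synthesis, had 65.4, 52.8, 63.9 and 84.1 CPM in the male controls and 41.8, 39.8, 47.4, 35.2 and 34.4 CPM in the male EAE mice. Here and below the values stand in the order of the mouse numbers, and female EAE mice are numbered 1, 3, 4 and 5. No male EAE library reached the lowest male control (log2 fold change -0.74 ± 0.18 (SE), adjusted p = 0.00733). In females Slc25a1 had 45.99, 82.7, 55.3 and 50.5 CPM in the female controls and 61.5, 45.02, 32.8 and 56.7 CPM in the female EAE mice, and the groups overlapped (log2 fold change -0.26 ± 0.20 (SE), adjusted p = 0.459). Slc25a10 (ENSMUSG00000025792), the dicarboxylate carrier that exchanges malate or succinate for phosphate, had 19.5, 17.4, 18.7 and 26.04 CPM in the male controls and 13.4, 10.9, 14.5, 11.4 and 12.6 CPM in the male EAE mice. These libraries too stayed apart (log2 fold change -0.70 ± 0.16 (SE), adjusted p = 0.00599). Among females it had 14.05, 22.5, 15.4 and 17.3 CPM in controls and 17.5, 12.04, 10.4 and 14.5 CPM in EAE mice, with overlap (log2 fold change -0.35 ± 0.17 (SE), adjusted p = 0.262). Slc25a20 (ENSMUSG00000032602), the carrier that brings acylcarnitines in for fatty acid oxidation, had 11.4, 9.53, 10.6 and 15.2 CPM in the male controls and 7.01, 7.86, 6.98, 6.25 and 7.16 CPM in the male EAE mice. The male groups did not overlap (log2 fold change -0.73 ± 0.16 (SE), adjusted p = 0.00545). The female libraries had 8.12, 14.4, 9.44 and 8.63 CPM in controls and 9.36, 7.31, 7.34 and 7.09 CPM in EAE mice, where only EAE mouse 1 reached the range of the controls (log2 fold change -0.38 ± 0.17 (SE), adjusted p = 0.235).

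Slc25a21 (ENSMUSG00000035472), the oxodicarboxylate carrier of lysine and tryptophan breakdown, was a low gene and had 0.623, 0.651, 0.541 and 1.499 CPM in the male controls and 0.285, 0.633, 0.298, 0.442 and 0.417 CPM in the male EAE mice. Male control 4 stood above the other 3 controls, and male EAE mouse 2 lay within their range (log2 fold change -0.99 ± 0.32 (SE), adjusted p = 0.02503). The log2 fold change was -0.53 without male control 4 (adjusted p = 0.209), which ended the call. The female libraries had 0.722, 1.19, 0.645 and 0.5205 CPM in controls and 0.586, 0.416, 0.536 and 0.487 CPM in EAE mice (log2 fold change -0.60 ± 0.34 (SE), adjusted p = 0.322). Slc25a11 (ENSMUSG00000014606), the oxoglutarate carrier, had 115, 105, 106 and 132 CPM in the male controls and 99.6, 97.2, 98.1, 86.2 and 93.6 CPM in the male EAE mice. The groups were apart by a smaller distance (log2 fold change -0.27 ± 0.11 (SE), adjusted p = 0.0534), and the call was lost when 1 of 2 libraries was left out, with -0.24 without male EAE mouse 4 (adjusted p = 0.125) and -0.18 without male control 4 (adjusted p = 0.243). In the female mice there were 108, 125, 85.6 and 115 CPM in the female controls and 117, 91.1, 99.5 and 109 CPM in the female EAE mice, and the groups overlapped (log2 fold change -0.06 ± 0.11 (SE), adjusted p = 0.796).

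Of the 13 tested carriers of amino acids and glutathione, 5 were lower and 2 were higher in male EAE mice, and the median log2 fold change was -0.22. The shares of all genes were 20.4% lower and 19.2% higher. Slc25a18 (ENSMUSG00000004902), a glutamate carrier that is known as a gene of astrocytes in the brain, fell most of all called members. It had 109.7, 109.9, 116 and 184 CPM in the male controls and 58.8, 41.01, 73.8, 43.1 and 52.3 CPM in the male EAE mice. Every male EAE library lay below every male control, and male control 4 was far above the other controls (log2 fold change -1.27 ± 0.24 (SE), adjusted p = 0.00541). Its values in females were 67.1, 157, 95.3 and 72.1 CPM in controls and 78.6, 60.1, 46.9 and 62.8 CPM in EAE mice, with female control 2 the highest and with overlap (log2 fold change -0.66 ± 0.25 (SE), adjusted p = 0.201). The astrocyte markers moved the same way, from 11699 to 16779 CPM in male controls to 7889 to 10012 CPM in male EAE mice, and their part in the fall of Slc25a18 was not tested. Without male control 4 the log2 fold change was -1.04 (adjusted p = 0.0282). Slc25a22 (ENSMUSG00000019082), the other glutamate carrier, which is abundant in neurons, was not called. It had 389.7, 339, 376 and 354 CPM in the male controls and 342, 333, 335, 321 and 289 CPM in the male EAE mice, where the ranges overlapped slightly (log2 fold change -0.17 ± 0.08 (SE), adjusted p = 0.106). Female mice had 359.6, 370.2, 378 and 392 CPM in the female controls and 345, 350.3, 302 and 393 CPM in the female EAE mice (log2 fold change -0.11 ± 0.08 (SE), adjusted p = 0.466).

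The aspartate/glutamate carriers Slc25a12 and Slc25a13 send aspartate out of mitochondria in the malate-aspartate shuttle. Slc25a12 (ENSMUSG00000027010), called aralar and the main form in brain, had 106, 124, 115 and 104 CPM in the male controls and 109, 115, 104, 107 and 103 CPM in the male EAE mice. The groups overlapped and the gene was not called (log2 fold change -0.06 ± 0.08 (SE), adjusted p = 0.573). Its female values were 120.1, 109.9, 110.2 and 121 CPM in controls and 111, 103, 102 and 123 CPM in EAE mice (log2 fold change -0.06 ± 0.08 (SE), adjusted p = 0.674). Slc25a13 (ENSMUSG00000015112), called citrin and the main form in liver, was near 1 CPM and had 0.843, 1.04, 1.01 and 1.12 CPM in the male controls and 1.23, 1.27, 1.995, 1.396 and 1.55 CPM in the male EAE mice. All male EAE libraries were above all male controls (log2 fold change 0.57 ± 0.19 (SE), adjusted p = 0.0273). Among females it had 1.38, 1.13, 1.29 and 1.44 CPM in the female controls and 0.982, 0.846, 1.53 and 1.17 CPM in the female EAE mice, and EAE mice lay on both sides of the controls (log2 fold change -0.20 ± 0.20 (SE), adjusted p = 0.577).

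**Figure D3:**
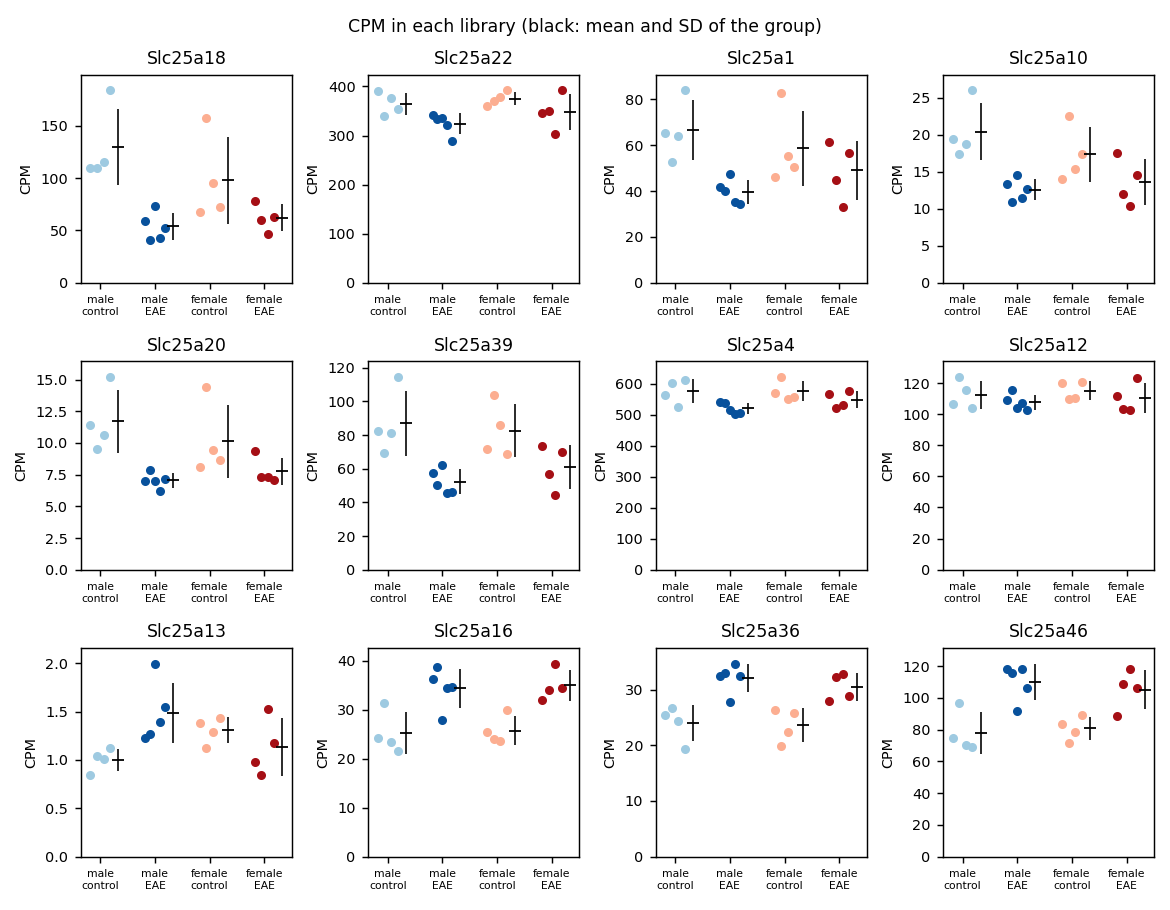
CPM of 12 SLC25 genes in each library of the 4 groups, on linear axes from 0, with the group mean and SD in black. Slc25a18, Slc25a1, Slc25a10, Slc25a20 and Slc25a39 are lower in male EAE mice without overlap, Slc25a13 and Slc25a36 are higher without overlap, and Slc25a4, Slc25a12 and Slc25a22 overlap.

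Both carriers that bring glutathione into the matrix were called, in opposite directions. Slc25a39 (ENSMUSG00000018677) had 82.5, 69.4, 81.1 and 115 CPM in the male controls and 57.7, 50.4, 62.4, 45.5 and 45.9 CPM in the male EAE mice. Every male EAE library was below the lowest control (log2 fold change -0.73 ± 0.16 (SE), adjusted p = 0.00563). The female libraries had 71.9, 104, 85.9 and 68.9 CPM in controls and 73.2, 56.98, 44.2 and 69.9 CPM in EAE mice, with overlap (log2 fold change -0.44 ± 0.17 (SE), adjusted p = 0.208). Slc25a40 rose in males (log2 fold change 0.37 ± 0.14 (SE), adjusted p = 0.0432), and its call was lost with 0.32 without male EAE mouse 2 (adjusted p = 0.109), 0.29 without male EAE mouse 5 (adjusted p = 0.132) and 0.34 without male control 3 (adjusted p = 0.107). Slc25a29, which carries basic amino acids, fell in males (log2 fold change -0.51 ± 0.12 (SE), adjusted p = 0.00569). Slc25a15, an ornithine carrier of the urea cycle, and Slc25a38, a glycine carrier used in heme synthesis, fell by 0.41 and 0.44 on the log2 scale (adjusted p = 0.0223 and 0.0158). Without male control 4 neither was called, with -0.26 (adjusted p = 0.137) for Slc25a15 and -0.28 (adjusted p = 0.103) for Slc25a38. Slc25a26 (ENSMUSG00000045100), which imports the methyl donor S-adenosylmethionine, was not called and had 14.7, 14.7, 17.3 and 19.3 CPM in the male controls and 15.8, 13.2, 14.04, 13.2 and 14.4 CPM in the male EAE mice (log2 fold change -0.22 ± 0.11 (SE), adjusted p = 0.124). In the female mice there were 15.9, 18.2, 13.1 and 16.8 CPM in the female controls and 19.6, 18.3, 16.03 and 17.8 CPM in the female EAE mice (log2 fold change 0.16 ± 0.12 (SE), adjusted p = 0.423). Slc25a44, which carries branched-chain amino acids, had a log2 fold change of 0.06 (adjusted p = 0.648) in males.

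Among the 16 tested carriers of nucleotides, cofactors and phosphate, 4 were lower and 5 were higher in male EAE mice, with a median log2 fold change of -0.07. The shares of all genes were 20.4% lower and 19.2% higher. The carriers of ADP, ATP and phosphate, which serve oxidative phosphorylation, belong to this group of 16. Slc25a4 (ENSMUSG00000031633) had 564, 602, 526 and 611 CPM in the male controls and 541, 539, 516, 501 and 505 CPM in the male EAE mice. The male groups overlapped and the gene was not called (log2 fold change -0.15 ± 0.07 (SE), adjusted p = 0.109). Its values in females were 570.0, 622, 552 and 558 CPM in controls and 567, 521, 532 and 576 CPM in EAE mice (log2 fold change -0.07 ± 0.07 (SE), adjusted p = 0.612). Slc25a5 (ENSMUSG00000016319), the ADP/ATP carrier ANT2 on the X chromosome, had 70.5, 64.3, 62.1 and 61.9 CPM in the male controls and 60.1, 63.4, 58.6, 53.7 and 61.8 CPM in the male EAE mice. It was not called either (log2 fold change -0.12 ± 0.10 (SE), adjusted p = 0.391). Female mice had 63.8, 65.03, 46.96 and 61.3 CPM in the female controls and 67.7, 49.8, 64.2 and 58.9 CPM in the female EAE mice (log2 fold change 0.02 ± 0.11 (SE), adjusted p = 0.928). Slc25a4, Slc25a5 and a pseudogene of Slc25a5 are alike in sequence, and how reads that match several of them were counted is not given in the sources used here. Slc25a3 (ENSMUSG00000061904), the phosphate carrier, had 169, 169, 147 and 192 CPM in the male controls and 137, 147, 138, 124 and 145 CPM in the male EAE mice. It was called lower although the groups overlapped (log2 fold change -0.29 ± 0.11 (SE), adjusted p = 0.0498), and the call was lost with -0.25 without male EAE mouse 4 (adjusted p = 0.121) and -0.20 without male control 4 (adjusted p = 0.212). Its female values were 169, 187, 134 and 138 CPM in controls and 171, 127, 140.0 and 147 CPM in EAE mice (log2 fold change -0.10 ± 0.12 (SE), adjusted p = 0.633).

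The carriers of ATP-Mg and phosphate, which set the adenine nucleotide pool of the matrix, did not move together. Slc25a24 (ENSMUSG00000040322) had 1.04, 1.01, 1.26 and 0.483 CPM in the male controls and 1.88, 1.47, 0.959, 1.66 and 1.49 CPM in the male EAE mice. Male EAE mouse 3 lay within the range of the controls and male control 4 was the lowest library (log2 fold change 0.65 ± 0.23 (SE), adjusted p = 0.0337), and the call was lost with 0.46 without male control 4 (adjusted p = 0.104). Among females it had 1.28, 1.18, 1.27 and 1.29 CPM in the female controls and 1.41, 1.76, 1.45 and 1.81 CPM in the female EAE mice, and all EAE mice were above all controls although the gene was not called (log2 fold change 0.36 ± 0.23 (SE), adjusted p = 0.389). Slc25a25 (ENSMUSG00000026819) had 99.1, 85.7, 95.8 and 95.9 CPM in the male controls and 89.2, 71.3, 79.4, 79.9 and 75.3 CPM in the male EAE mice. Only EAE mouse 1 reached the range of the controls (log2 fold change -0.25 ± 0.08 (SE), adjusted p = 0.0213). This fold change lay at the threshold of 0.25, so that the call was lost when any 1 of 8 libraries was left out: male controls 1, 3 and 4, male EAE mice 2 and 5, female controls 3 and 4 and female EAE mouse 3, with values from -0.23 to -0.25. The female libraries had 81.1, 75.5, 78.4 and 86.6 CPM in controls and 75.6, 71.4, 82.6 and 71.7 CPM in EAE mice (log2 fold change -0.09 ± 0.08 (SE), adjusted p = 0.538). Slc25a23, the most abundant of these, had a log2 fold change of -0.02 (adjusted p = 0.922) in males and -0.26 (adjusted p = 0.2097) in females. Slc25a41 (ENSMUSG00000011486) had between 0 and 8 counts in each library and was not called (log2 fold change -0.54 ± 0.76 (SE), adjusted p = 0.621), with 0.0346, 0.0509, 0.0221 and 0.102 CPM in the male controls and 0.0389, 0.0551, 0.01296, 0.0553 and 0.0135 CPM in the male EAE mice, and 0.0431, 0, 0.02303 and 0 CPM in the female controls and 0, 0.0287, 0.0112 and 0.0287 CPM in the female EAE mice.

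The pyrimidine nucleotide carriers, which supply mitochondrial DNA and RNA synthesis, moved in opposite directions in males. Slc25a33 (ENSMUSG00000028982) had 49.3, 40.3, 45.4 and 73.1 CPM in the male controls and 36.2, 41.5, 40.8, 30.4 and 33.2 CPM in the male EAE mice. Male EAE mice 2 and 3 lay just above the lowest control and male control 4 stood above the rest (log2 fold change -0.51 ± 0.16 (SE), adjusted p = 0.0189). The log2 fold change was -0.29 without male control 4 (adjusted p = 0.136), and the gene was then not called. In the female mice there were 38.3, 57.1, 38.2 and 44.4 CPM in the female controls and 43.6, 34.2, 35.02 and 40.6 CPM in the female EAE mice (log2 fold change -0.21 ± 0.17 (SE), adjusted p = 0.472). Slc25a36 (ENSMUSG00000032449) had 25.5, 26.7, 24.3 and 19.4 CPM in the male controls and 32.4, 33.1, 27.8, 34.7 and 32.4 CPM in the male EAE mice. All male EAE libraries were above all controls (log2 fold change 0.42 ± 0.11 (SE), adjusted p = 0.00844). The female values, 26.4, 19.8, 22.4 and 25.8 CPM in controls and 27.9, 32.3, 32.8 and 28.8 CPM in EAE mice, were also apart, though the gene was not called there (log2 fold change 0.37 ± 0.11 (SE), adjusted p = 0.173).

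Some other carriers of cofactors rose in males. Slc25a16 (ENSMUSG00000071253), tied to coenzyme A in mitochondria, had 24.3, 31.4, 23.4 and 21.6 CPM in the male controls and 36.2, 38.7, 27.9, 34.3 and 34.6 CPM in the male EAE mice. Male control 2 lay within the range of the EAE mice (log2 fold change 0.45 ± 0.12 (SE), adjusted p = 0.009096). Its values in females were 25.4, 24.01, 23.5 and 29.9 CPM in the female controls and 31.9, 34.1, 39.4 and 34.4 CPM in the female EAE mice, where EAE and control mice were apart and the gene had the smallest p of the members without being called (log2 fold change 0.44 ± 0.12 (SE), adjusted p = 0.167). Slc25a32 (ENSMUSG00000022299), a carrier of folate and flavin, had 2.89, 4.49, 2.77 and 2.54 CPM in the male controls and 4.32, 5.13, 3.43, 4.82 and 5.76 CPM in the male EAE mice. Male control 2 overlapped with the EAE mice (log2 fold change 0.56 ± 0.21 (SE), adjusted p = 0.0427), and the call was lost with 0.47 without male EAE mouse 5 (adjusted p = 0.116), 0.52 without male control 1 (adjusted p = 0.103), 0.52 without male control 3 (adjusted p = 0.1002) and 0.49 without male control 4 (adjusted p = 0.131). Female mice had 3.41, 2.25, 3.41 and 3.24 CPM in controls and 3.84, 4.27, 6.61 and 3.83 CPM in EAE mice, all EAE mice being higher (log2 fold change 0.59 ± 0.22 (SE), adjusted p = 0.196). Slc25a51, the importer of NAD, rose in males (log2 fold change 0.38 ± 0.11 (SE), adjusted p = 0.0114). Slc25a42, a carrier of coenzyme A, had a log2 fold change of -0.17 and an adjusted p of 0.0952, short of the threshold on size, and the peroxisomal Slc25a17 had 0.17 (adjusted p = 0.185).

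Of the 5 carriers that resemble uncoupling proteins or carry iron, 2 were lower and 2 were higher in male EAE mice, beside 20.4% lower and 19.2% higher of all genes. Slc25a27, also called UCP4 and known from neurons, rose (log2 fold change 0.39 ± 0.10 (SE), adjusted p = 0.00917). Slc25a14, also called UCP5 and located on the X chromosome, fell (log2 fold change -0.39 ± 0.17 (SE), adjusted p = 0.0825), and leaving out any of male controls 1, 3 and 4 or male EAE mice 1 to 4 ended the call, with values from -0.27 to -0.41. Slc25a30 had 0.10 (adjusted p = 0.794). The mitoferrins, which import iron for heme and iron-sulphur clusters, parted. Slc25a28 (mitoferrin 2) fell without overlap (log2 fold change -0.35 ± 0.09 (SE), adjusted p = 0.00844), and Slc25a37 (mitoferrin 1) rose (log2 fold change 0.39 ± 0.14 (SE), adjusted p = 0.0388) but was not called with 0.32 without male EAE mouse 5 (adjusted p = 0.112) and 0.31 without male control 4 (adjusted p = 0.134).

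Of the 7 tested members of the outer membrane or without a settled substrate, 2 were lower and 1 was higher in male EAE mice. This is near the shares of all genes, which were 20.4% lower and 19.2% higher. Slc25a46 (ENSMUSG00000024259), an outer membrane protein that takes part in mitochondrial fission and fusion, had 75.03, 96.997, 70.6 and 68.9 CPM in the male controls and 118, 116, 91.7, 118 and 107 CPM in the male EAE mice. Only male control 2 reached the range of the EAE mice (log2 fold change 0.50 ± 0.11 (SE), adjusted p = 0.00576). Its female values were 83.7, 71.7, 78.6 and 89.1 CPM in the female controls and 88.5, 109, 118 and 106 CPM in the female EAE mice, with an overlap of EAE mouse 1 with control 4 (log2 fold change 0.38 ± 0.12 (SE), adjusted p = 0.173). Slc25a34 (ENSMUSG00000040740), an orphan carrier, had 24.8, 17.5, 19.6 and 35.7 CPM in the male controls and 10.9, 16.1, 18.3, 9.08 and 10.3 CPM in the male EAE mice. Male EAE mouse 3 was just above control 2, and male control 4 stood highest (log2 fold change -0.92 ± 0.24 (SE), adjusted p = 0.00925). Among females it had 18.9, 34.7, 25.1 and 19.8 CPM in controls and 16.6, 11.04, 13.5 and 18.6 CPM in EAE mice, apart by a narrow gap (log2 fold change -0.72 ± 0.26 (SE), adjusted p = 0.191). Slc25a47 fell in males without overlap (log2 fold change -0.50 ± 0.15 (SE), adjusted p = 0.0172). Slc25a43 had the largest positive value of the family at 1.14 ± 0.71 (SE) in males, from at most 16 counts in a library, and was not called (adjusted p = 0.2299).

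For pairs of carriers with the same or a similar substrate, the ratio of both genes within each library does not depend on scaling between libraries. Such a ratio shows unequal change, and it does not tell whether 1 gene moved alone or both moved. The ratios are not adjusted for GC content or exon length, which can differ within a pair. Slc25a39 had a GC content of 59.7% and Slc25a40 of 39.4%. The pairs were chosen after their values were seen, so the ratios are given as a description. The log2 ratio of Slc25a33 to Slc25a36 was 1.09 ± 0.57 (SD, n = 4) in male controls and 0.18 ± 0.28 (SD, n = 5) in male EAE mice, all of the latter being lower, and 0.90 ± 0.43 (SD, n = 4) and 0.33 ± 0.28 (SD, n = 4) in female control and EAE mice, with overlap. For the glutathione carriers, Slc25a39 over Slc25a40, it was 4.27 ± 0.38 (SD, n = 4) in male controls and 3.20 ± 0.42 (SD, n = 5) in male EAE mice, and 4.10 ± 0.34 (SD, n = 4) in female controls and 3.36 ± 0.34 (SD, n = 4) in female EAE mice. This ratio was lower in EAE without overlap in both sexes. The mitoferrins, Slc25a28 over Slc25a37, had 2.03 ± 0.32 (SD, n = 4) in male controls and 1.29 ± 0.32 (SD, n = 5) in male EAE mice, with overlap, and 1.82 ± 0.20 (SD, n = 4) in female controls and 1.58 ± 0.42 (SD, n = 4) in female EAE mice, also with overlap. The ratio of Slc25a25 to Slc25a24 was 6.002 ± 0.05 (SD, n = 4) in female controls and 5.56 ± 0.27 (SD, n = 4) in female EAE mice without overlap, while the male values of 6.72 ± 0.63 (SD, n = 4) and 5.76 ± 0.35 (SD, n = 5) overlapped. Slc25a12 over Slc25a13 had 6.82 ± 0.19 (SD, n = 4) in male controls and 6.20 ± 0.33 (SD, n = 5) in male EAE mice, and these did not overlap. The female mean was higher in EAE, with 6.47 ± 0.10 (SD, n = 4) in female controls and 6.63 ± 0.39 (SD, n = 4) in female EAE mice, and the groups overlapped. Slc25a18 over Slc25a22 had -1.53 ± 0.40 (SD, n = 4) in male controls and -2.62 ± 0.34 (SD, n = 5) in those with EAE. These ranges were apart, although both genes had log2 fold changes below 0 in males. Its female values, -2.02 ± 0.57 (SD, n = 4) in female controls and -2.50 ± 0.25 (SD, n = 4) in female EAE mice, overlapped. For the ADP/ATP carriers the ranges overlapped in both sexes, with Slc25a4 over Slc25a5 at 3.15 ± 0.14 (SD, n = 4) in male controls and 3.13 ± 0.07 (SD, n = 5) in male EAE mice, and 3.29 ± 0.18 (SD, n = 4) in female controls and 3.20 ± 0.17 (SD, n = 4) in female EAE mice.

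**Figure D4:**
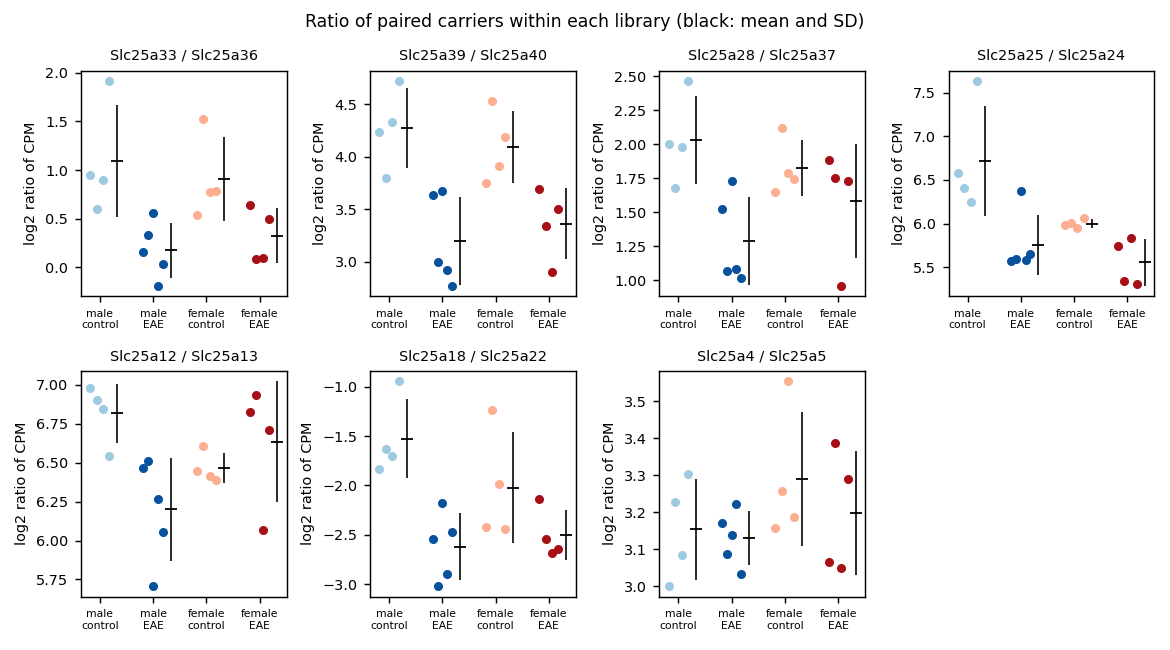
Log2 ratio of the CPM of 2 related carriers within each library, for 7 pairs and the 4 groups, with the group mean and SD in black. The ratio of Slc25a39 to Slc25a40 is lower in EAE without overlap in both sexes, and that of Slc25a4 to Slc25a5 lies between 3.0005 and 3.55 in all libraries.

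The promoters of the pyrimidine and glutathione pairs, whose members moved in opposite directions in males, are shown as a description. Any part of the promoters in these changes was not tested. Each sequence is the stretch of 250 bases before the RefSeq start on build GRCm38.p6, read 5′ to 3′ on the strand of the gene, with CG dinucleotides and any motif found in capitals.
Slc25a33, chr4:149774268-149774517, minus strand: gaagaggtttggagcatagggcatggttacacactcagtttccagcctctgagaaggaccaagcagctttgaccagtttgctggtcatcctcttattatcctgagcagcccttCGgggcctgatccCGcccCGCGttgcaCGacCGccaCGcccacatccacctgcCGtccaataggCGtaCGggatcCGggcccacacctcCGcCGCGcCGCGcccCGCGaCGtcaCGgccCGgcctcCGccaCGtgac
Slc25a36, chr9:97111042-97111291, minus strand: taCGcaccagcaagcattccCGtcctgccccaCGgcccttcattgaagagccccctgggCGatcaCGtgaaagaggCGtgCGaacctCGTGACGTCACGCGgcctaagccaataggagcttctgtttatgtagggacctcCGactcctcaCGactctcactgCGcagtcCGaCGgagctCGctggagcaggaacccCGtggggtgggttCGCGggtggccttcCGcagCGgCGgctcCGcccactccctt
Slc25a39, chr11:102407518-102407767, minus strand: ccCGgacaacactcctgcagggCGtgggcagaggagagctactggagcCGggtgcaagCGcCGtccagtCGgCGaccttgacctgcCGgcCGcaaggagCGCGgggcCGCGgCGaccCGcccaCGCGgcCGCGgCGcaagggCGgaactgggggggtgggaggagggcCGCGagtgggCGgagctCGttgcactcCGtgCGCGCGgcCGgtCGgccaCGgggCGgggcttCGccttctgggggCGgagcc
Slc25a40, chr5:8422588-8422837, plus strand: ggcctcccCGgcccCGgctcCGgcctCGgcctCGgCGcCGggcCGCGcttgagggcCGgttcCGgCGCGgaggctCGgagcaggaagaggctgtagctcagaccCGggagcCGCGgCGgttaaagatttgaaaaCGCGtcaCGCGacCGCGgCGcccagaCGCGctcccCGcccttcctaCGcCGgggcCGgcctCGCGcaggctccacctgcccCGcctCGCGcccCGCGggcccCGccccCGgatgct

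The window of Slc25a33 held 23 CG dinucleotides and that of Slc25a36 held 24, both with a GC content of 64.4%. The windows of Slc25a39 and Slc25a40 held 35 and 40, with GC contents of 77.2% and 78.0%. By the gene bounds of the GENCODE M21 annotation, the window of Slc25a39 lies within the gene. Those of Slc25a33 and Slc25a36 lie partly within theirs. A single window is shown for each gene, and a gene can have several. Windows of 250 bases were found for 35 of the 46 tested members, 45 windows in all, with a median of 11 CG dinucleotides, and the median over 32851 promoters was 6. The cyclic AMP response element, TGACGTCA, which is its own reverse complement, was in the window of Slc25a36 and in 1 other member's, that of Slc25a25. It was in 1.55% of all promoters of this length. The core of the nuclear respiratory factor 1 motif, GCATGCGC, was in 1 member window on either strand, that of Slc25a54, and in 2.26% of all promoters. The motif of the estrogen-related receptors, TCAAGGTCA, was in 0 of the 45 windows and in 0.387% of all promoters on either strand. A match is a description of these letters and not a measured binding site.

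The called members differed in the composition and length of their transcripts. Over the 46 members, the log2 fold change in males had a correlation across genes of r = -0.54 with the GC content of the transcript and of 0.24 with the logarithm of the exon length. These genes share their libraries and are not independent replicates. The 18 members that fell had a median GC content of 54.0% and a median exon length of 2870.5 bases, and the 10 that rose had 42.9% and 5467.5 bases. All genes showed the same order, with 52.4% for those lower and 46.7% for those higher in male EAE mice. In the pyrimidine pair GC content was 53.8% for Slc25a33 and 40.7% for Slc25a36, and in the glutathione pair 59.7% for Slc25a39 and 39.4% for Slc25a40. With an offset for GC content in the fit, 21 members and 38.5% of all genes were called in males, 7 members having lost the call. Slc25a36 then had a log2 fold change of 0.20 and Slc25a40 of 0.11, and neither was called, nor was Slc25a32 at 0.36 or Slc25a11 at -0.13. Slc25a25 at -0.24 and Slc25a28 at -0.22 were among those that came to lie within 0.25 of 0. Slc25a18 at -1.14, Slc25a21 at -1.15, Slc25a20 at -0.74 and Slc25a1 at -0.56 were still lower. With an offset for gene length, 26 members and 36.9% of all genes were called. The 5 members that lost the call were Slc25a11 at -0.02, Slc25a14 at -0.16, Slc25a33 at -0.22, Slc25a36 at 0.20 and Slc25a40 at 0.18. The 3 that gained it were Slc25a17 at 0.33, Slc25a22 at -0.255 and Slc25a42 at -0.257.

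**Figure D5:**
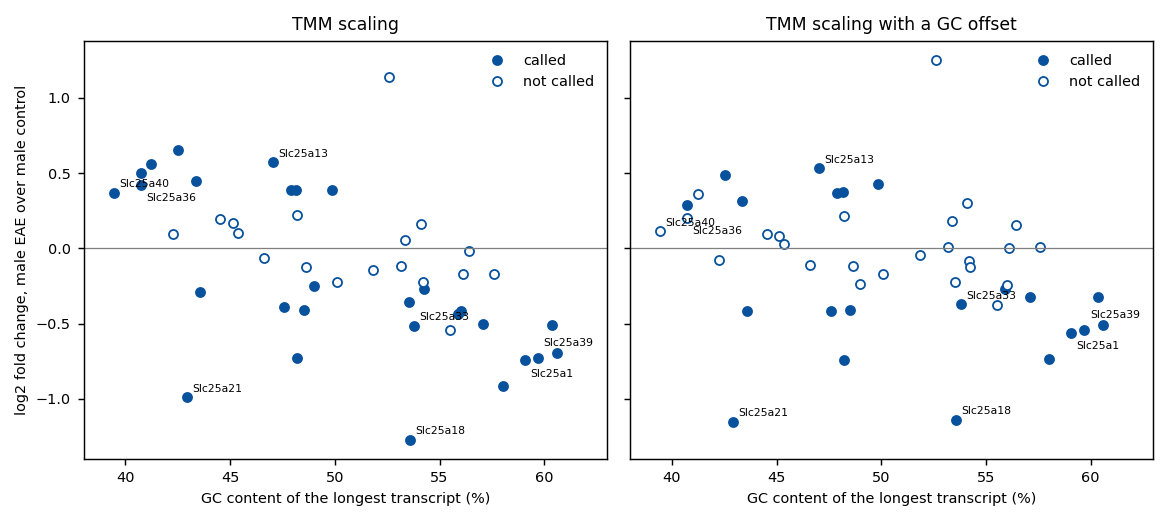
Log2 fold change of male EAE over male control against the GC content of the transcript for the 46 tested SLC25 genes, with TMM scaling (left) and with a GC offset added (right), called members filled. The 6 members with the lowest GC content lie above 0 on the left, and 28 members are called there against 21 on the right.

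In females, 31 of the 46 members had a log2 fold change below 0 and 15 above 0. By edgeR 0 were called, while 13 of the members and 4415 of all 22242 genes had an unadjusted p under 0.05. DESeq2 called 6 of the members and 6.09% of all genes, or 1354 genes, and limma voom called 0 of either. The 6 were Slc25a16, Slc25a32, Slc25a36, Slc25a46 and Slc25a53, which were higher in EAE, and Slc25a34, which was lower. Their log2 fold changes by DESeq2 ran from -0.72 for Slc25a34 to 0.59 for Slc25a32. The EAE and control libraries did not overlap for 7 of the 46 members, Slc25a16, Slc25a24, Slc25a28, Slc25a32, Slc25a34, Slc25a36 and Slc25a53, and for 7.43% of all genes. Slc25a53, an orphan carrier on the X chromosome, had 17.5, 15.7, 15.98 and 18.1 CPM in the female controls and 19.3, 19.5, 23.03 and 18.98 CPM in the female EAE mice (log2 fold change 0.26 ± 0.09 (SE), adjusted p = 0.183).

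A call in males and none in females is not a difference between the sexes, so the difference of the EAE effects was tested itself. It was called for 0 of the 46 members by edgeR, by DESeq2 and by limma voom, and for 0% of all genes by edgeR and 0.0135% by DESeq2. By edgeR, 2 of the 46 members and 933 of all 22242 genes had an unadjusted p under 0.05. Slc25a13 had a male effect that was 0.77 ± 0.27 (SE) higher on the log2 scale than the female effect (adjusted p = 0.807, edgeR). For Slc25a26 the difference was -0.39 ± 0.16 (adjusted p = 0.807, edgeR). For all 5 carriers of carboxylates and acylcarnitines the EAE effect was lower in males than in females, by a median of -0.35. None of them passed the test. The difference was below 0 for 27 of the 46 members and 11266 of all 22242 genes. Log2 fold changes of male over female controls were above 0 for all 5 of these carriers, with a median of 0.18. Of the 5, 0 were called. Values above 0 were found for 27 of the 46 members and 11088 of all 22242 genes. Both comparisons use the same control libraries, so these signs are not separate observations.

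Male and female controls were called different for 0 of the 46 members by each of edgeR, DESeq2 and limma voom, where edgeR called 0.0674% of all genes and DESeq2 0.256%. By edgeR, 1 of the 46 members and 1046 of all 22242 genes had an unadjusted p under 0.05. The member was Slc25a25, with a log2 fold change of 0.23 ± 0.08 (SE) of male over female controls (adjusted p = 0.983, edgeR). Slc25a13 was lower in every male control than in any female control (log2 fold change -0.39 ± 0.20 (SE), adjusted p = 0.99999), and these male controls are also the baseline of its rise in male EAE mice.

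Other genes of mitochondrial transport were set beside the family. Of all genes, 20.4% were called lower and 19.2% higher in male EAE mice. Of the 4 tested members of the protein family with other symbols, 2 were lower in male EAE mice, Ucp3, an uncoupling protein (-0.77 ± 0.24, adjusted p = 0.0196), and Mtch1 of the outer membrane (-0.37 ± 0.11, adjusted p = 0.0135). Ucp2 and Mtch2 were not called. Of 22 other genes of mitochondrial transport, 10 were lower and 2 were higher, with a median of -0.22. Sfxn5, a sideroflexin (-0.98 ± 0.20, adjusted p = 0.00541), and Smdt1, a subunit of the calcium uniporter (-0.89 ± 0.21, adjusted p = 0.00608), were among the lower. Of 8 enzymes of the malate-aspartate shuttle and of glutamate metabolism, 4 were lower, the malate dehydrogenases Mdh1 (-0.42 ± 0.11, adjusted p = 0.00808) and Mdh2 (-0.39 ± 0.10, adjusted p = 0.00745), glutamate dehydrogenase Glud1 (-0.71 ± 0.15, adjusted p = 0.00541) and glutamine synthetase Glul (-0.87 ± 0.19, adjusted p = 0.00559), which is also 1 of the 12 astrocyte markers. The aspartate aminotransferases Got1 and Got2 were not called.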

How the data were processed

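RNA was isolated after the pull-down, and stranded libraries of polyadenylated RNA were sequenced as paired ends. The authors demultiplexed reads with bcl2fastq 2.17, checked them with FastQC, trimmed them with Trimmomatic, aligned them to mm10 and deposited counts per Ensembl gene made with QuasR. The strand and multiple-match settings of the counting are not given in the sources used here. Symbols, exon lengths and transcript GC content came from GENCODE M21 (37693 of 39017 identifiers matched), and promoters from RefSeq on GRCm38.p6.

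Genes with a count under 1 in most of the 17 libraries were dropped. EdgeR 4.0.16 in R 4.3.3 (quasi-likelihood test, TMM, 1 mean for each of the 4 groups) was fitted to all 22242 genes, with Benjamini-Hochberg adjustment over all of them. Depth was 66155142 to 98433383 counts. The p-values set the difference of group means against the spread between mice. Alternatives were DESeq2 1.42.0 and its size factors, limma 3.58.1 voom, other filters, each sex alone, a replicate block, length or GC offsets, 1 surrogate variable (sva 3.50.0) and each library left out. The test was tried on simulated data.

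The members and lists were chosen with earlier results of these data known. Named with every library's value were the 8 lowest and 6 highest called members in males, the 10 carriers of ADP/ATP, phosphate, aspartate/glutamate, glutamate, citrate and oxoglutarate, and the 3 members with the smallest p in each other comparison. Slc25a53 and the promoters were added after values were seen. Single results for a few genes are not reported here, though the counts include them.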

Additional observations from a re-analysis of the deposited data

Results flagged for a closer look

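For the 23 tested members with named values, each of the 4 groups was searched for a library far from the rest, and 5 of 92 combinations had one. Chance alone gives about 1 in 20. Slc25a18 had 184 CPM in male control 4, where the other 3 male controls had 109.7 to 116 CPM, and Slc25a21 had 1.499 CPM in the same library, against 0.541 to 0.651 CPM. That library also had the highest summed astrocyte markers of the male controls, at 16779 CPM. Slc25a20 had 9.36 CPM in female EAE mouse 1, where the others had 7.09 to 7.34 CPM. Slc25a32 had 2.25 CPM in female control 2, against 3.24 to 3.41 CPM in the other female controls, and 6.61 CPM in female EAE mouse 4, where the remaining EAE females had 3.83 to 4.27 CPM. What sets these libraries apart was not tested.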

How the results depend on the processing

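The count of 28 members called in males was 27 with DESeq2 and with its size factors in edgeR. It was 28 with limma voom and with each sex fitted alone, 27 without the filter, 26 with a length offset and 21 with a GC offset. Among genes above a mean log2 CPM of 1 it was 24, where 7424 of the 13470 genes tested were called. That setting leaves low members untested, among them Slc25a13, Slc25a21 and Slc25a24, which were called in the main fit. The count was 0 with 1 surrogate variable, where 9 of all genes were called and the log2 fold changes of 12 members changed sign. These were 5 called ones, Slc25a1 (0.048), Slc25a32 (-0.183), Slc25a33 (0.083), Slc25a37 (-0.131) and Slc25a38 (0.067), and 7 not called. Leaving out each library in turn gave 17 (without male control 4) to 29 (without male control 2) called members, and leaving out male control 4 and female control 2, a choice made after the data were seen, gave 20. The count of 0 in females was 6 with DESeq2, which called 1354 of all genes there against 13 by edgeR, and 0 under all other alternatives run, and the counts for the difference between the sexes and between the controls were 0 under each. The cause of these changes was not tested.

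With the replicate number as a block, 25 members were called in males and 0 in females. Deviations of mice with the same number had correlations from -0.57 to 0.13 in males and from -0.37 to 0.53 in females over 13470 genes. Of 7 control libraries, 2 were closest to the EAE library of their own number, and both were female, controls 3 and 4. With so few libraries, these values cannot decide whether the numbers pair the mice. Slc25a41, Slc25a43, Slc25a54 and Slc25a31 had at most 16 counts in a library, too few to detect a change of moderate size.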
